A study of Mus musculus with 4 samples.

Results

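Rab GTPases are small proteins that each mark a membrane compartment and direct vesicle traffic. A Rab is loaded with GTP by a guanine nucleotide exchange factor (GEF), recruits effectors and tethers that bring vesicles to their target, and is switched off by a GTPase-activating protein (GAP). A lipid anchor added by Rab geranylgeranyl transferase holds it on the membrane, and GDP dissociation inhibitors recycle it. In macrophages this traffic carries cytokines to the cell surface and moves phagosomes and endosomes toward lysosomes. The transcripts of the family were examined in tumor-associated macrophages (TAMs) after blockade of beta-adrenergic receptors. The family was taken as the protein-coding genes whose symbols are Rab, a number and at most a further letter and number in the mouse GENCODE M21 annotation. This gave 59 of the 54146 genes listed, of which 50 had enough counts to be tested.

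The TAMs came from female C57BL/6 mice of 8 to 16 weeks that carried subcutaneous tumors of MCA205, a mouse fibrosarcoma cell line. One group of mice drank water with propranolol, a nonselective blocker of beta-adrenergic receptors, at 0.5 g/L from the day the tumor cells were inoculated, and the control group, labelled vehicle, did not receive it. CD45+ cells were enriched from the tumors with magnetic beads, live CD11b+ F4/80+ cells were sorted by flow cytometry, and their polyadenylated RNA was sequenced in 2 libraries per group. All mice carried the same tumor line and no genotype other than the strain is given, and the sources used here do not state whether a library is 1 mouse or a pool. The control libraries held 13798249 and 23018142 counted fragments and the propranolol libraries 39818103 and 16424081. Levels are given as CPM, the count of a gene scaled to the size of its library after TMM scaling, which sets library sizes so that most genes do not move, and levels of different genes are compared as CPM per kilobase of exon.

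Macrophage markers were high in all 4 libraries. The 9 markers summed to 10170 and 9660 CPM per kilobase in control libraries and 11800 and 10190 in propranolol libraries, with Lyz2 the most abundant (here and below per length). Of these, Csf1r rose and none fell, a change being an adjusted p below 0.05 in the edgeR test and more than 1.5-fold. By this definition 12.2% of all tested genes rose and 15.6% fell, and the marker counts below stand beside these shares. Markers of other cells moved with the groups. The 8 neutrophil markers summed to 102.1 and 111.9 CPM per kilobase in control and 288.2 and 284.2 in propranolol libraries, S100a9 was the most abundant and 4 of 5 tested rose. The fifth, Csf3r, was at 97.0 and 129.5 against 154.3 and 179.7 CPM, under the fold threshold. The other members had too few counts to be tested, with Ly6g at 0, 2, 17 and 8 counts and the progenitor genes Mpo at 2, 2, 9 and 0 and Elane at 1, 0, 8 and 0 (control replicates 1 and 2, then propranolol replicates 1 and 2). The 6 T cell markers summed to 70.2 and 78.3 CPM per kilobase in control and 38.28 and 21.99 in propranolol libraries, with Trac the most abundant, and 5 of 6 fell, Cd4 being the exception. All 6 markers of natural killer (NK) cells, Prf1 the most abundant, fell, from sums of 66.7 and 65.6 to 23.7 and 10.9. Fibroblast and tumor cell markers, led by Col1a1, fell in 6 of 7 cases, and their sum was higher in control replicate 1 (455.2) than in control replicate 2 (169.6) or the propranolol libraries (98.4 and 105.3). Of the remaining lists, 2 of 5 monocyte, 1 of 2 B cell, 1 of 4 endothelial and 1 of 3 mast cell and platelet markers rose, while 1 B cell, 1 mast cell and platelet and 3 of 6 dendritic cell markers fell. The most abundant were Plac8, Cd79b, Pecam1, Pf4 and Ccr7, and the mast cell gene Cpa3 was at 0, 0, 1 and 2 counts. After removal of the GC trend of fold changes, 5 T cell, 4 NK cell, 6 fibroblast and tumor cell and 1 dendritic cell markers were called lower and 4 neutrophil and 2 monocyte markers higher, 1 mast cell and platelet marker was still higher (Pf4) and 1 lower (Kit), no B cell or endothelial marker was called, and Mrc1 in place of Csf1r was the macrophage marker called. Over all tested genes, 7.64% were called higher and 4.99% lower after this removal. The part of the cells marked by these lists in the changes of Rab genes was not tested. In sorted bulk samples, fewer cells of a type and less RNA per cell cannot be told apart.

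Rab genes spanned a wide range of levels. Rab5c, an early endosome Rab, was the highest, followed by Rab1b of transport from the endoplasmic reticulum (ER) to the Golgi and Rab7 of late endosomes and lysosomes. Rab5c was measured at 225.5 and 211.8 CPM per kilobase in control libraries and at 351.7 and 339.8 in propranolol libraries. Rab7 stood at 130.2 and 119.0 against 125.6 and 110.2, and the groups overlapped. Rab1b exceeded Rab7 in propranolol libraries (164.4 and 160.8) and lay below it in the control libraries (97.4 and 92.5). Rab1a, Rab8b, Rab32, Rab31, Rab20, Rab2a and Rab10 completed the 10 highest, between 30.1 and 74.8 CPM per kilobase in control replicate 1. In that range neighbours did not separate, since the control levels of Rab2a (52.0 and 45.5), Rab10 (50.1 and 47.4) and Rab31 (50.6 and 42.8) overlapped. The 9 untested genes, Rab3c, Rab9b, Rab17, Rab25, Rab26, Rab27b, Rab33a, Rab39b and Rab40b, had at most 21 counts in any library. These include Rab17 and Rab25, known from epithelial cells.

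**Figure D1:**
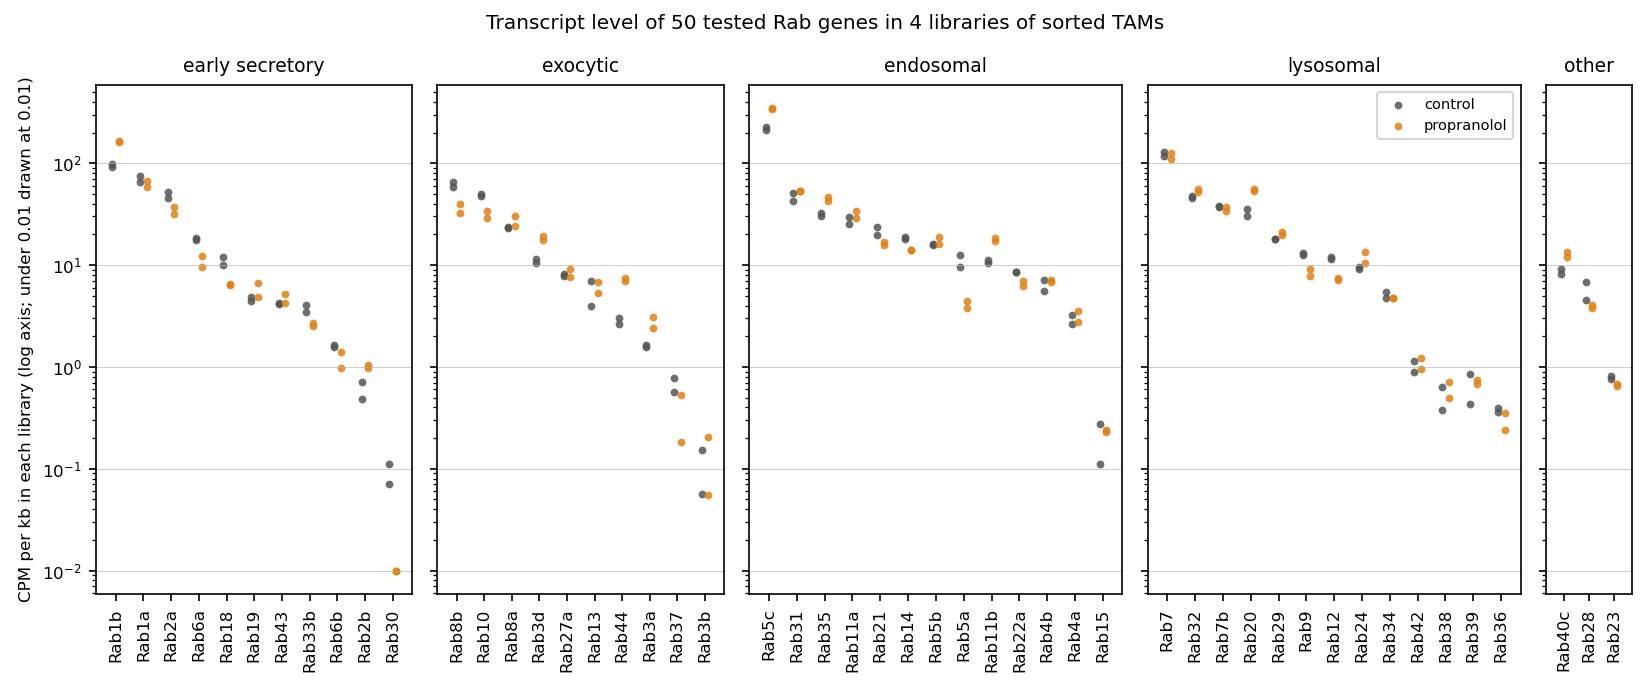
Level of the 50 tested Rab genes in CPM per kilobase of exon (log axis), grouped by role, with 1 point for each of the 2 control (grey) and 2 propranolol (orange) libraries. Rab5c is the highest gene in every library, and the propranolol values of Rab5a lie below its control values.

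To determine which Rab genes differed between TAMs of control and propranolol treated mice, all tested genes were fitted with the quasi-likelihood test of edgeR, with a call defined as an adjusted p below 0.05 together with a change of more than 1.5-fold. Of the 50 tested Rab genes, 7 rose and 8 fell, which is 15 of 50 (30%) against 27.8% of all 14688 tested genes. By direction, 12.2% of all tested genes rose and 15.6% fell. The family was therefore called about as often as genes in general, and the counts below describe its members rather than a property of the family. The median log2 fold change was 0.13 over the Rab genes and -0.02 over all tested genes. With no fold threshold 42.2% of all tested genes passed the adjusted p, and so did a further 7 Rab genes, of which Rab35 and Rab40c were higher and Rab2a, Rab14, Rab21, Rab22a and Rab33b lower. The 2 propranolol libraries lay both above the 2 control libraries for 17 Rab genes and both below for 18, together 35 of 50 (70.0%). Over all tested genes the shares were 35.8% above, 36.9% below and 72.6% together. The groups did not overlap for any of the 15 called genes. Without propranolol replicate 2, 7 Rab genes rose and 5 fell, and without any other library 7 to 9 rose and 6 to 10 fell. The share called among all tested genes was 22.3% in the first of these fits and 22.9% to 29.1% in the others. With 2 libraries per group an exact permutation test of a single value cannot go below 0.33, so the calls rest on the spread that edgeR estimates across genes.

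The split between higher and lower calls depended on scaling. The TMM factors were 1.08 and 1.09 for the control and 0.914 and 0.931 for the propranolol libraries. With library sizes alone the median log2 fold change of all tested genes was -0.25, and 1 Rab gene (Rab44) rose and 14 fell, against 4.15% and 23.8% of all tested genes. All 8 genes called lower with TMM were among these 14, and the other 6 called higher kept a positive log2 fold change, from 0.43 to 0.55, under the fold threshold. Ratios between Rab genes within a library do not depend on scaling, and are given for this reason.

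**Figure D2:**
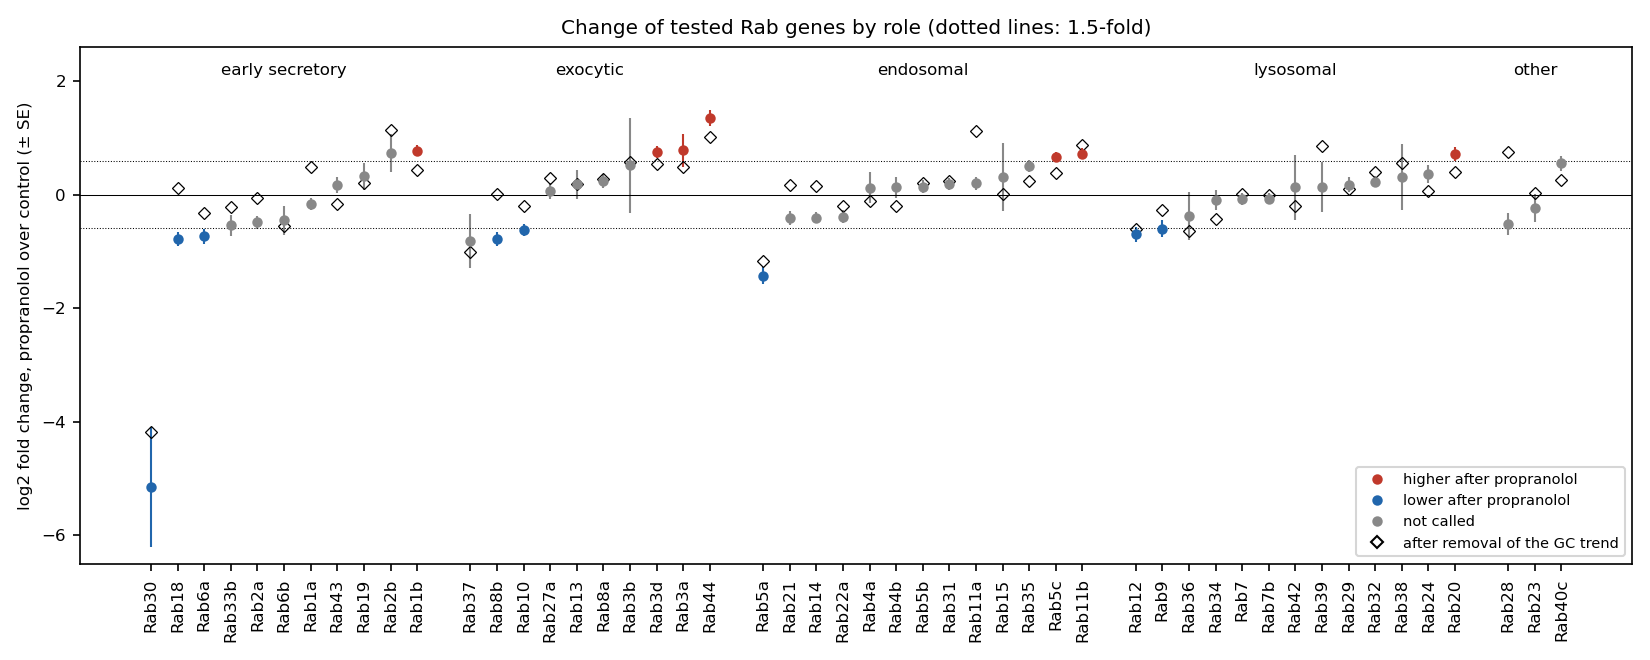
Log2 fold change (propranolol over control, ± SE) of the tested Rab genes by role, with genes called higher in red, lower in blue and not called in grey, and open diamonds for the value after removal of the trend with GC content. Rab44 and Rab5a lie outside the 1.5-fold lines before and after the removal, while Rab8b and Rab18 move from below the lower line to near 0.

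Fold changes were related to the GC content of the transcripts. Over the 50 tested Rab genes, the log2 fold change and GC content had a Spearman rho of 0.56 and a Pearson r of 0.52, and over 14681 tested genes the values were 0.58 and 0.51. The points are genes measured in the same 4 libraries, so these are descriptions. Without Rab30, the most extreme point, the Rab values were 0.53 and 0.52. The median GC content was 55.0% for the 7 Rab genes called higher, 44.6% for the 8 called lower and 49.3% for the 35 others. After a smooth trend with GC content was removed from each library, 5 Rab genes were called higher and 3 lower, against 7.64% and 4.99% of all tested genes. This removal moved the median of all tested genes from -0.02 to 0.09. Of the 15 genes called without it, 5 were still called, namely Rab44 and Rab11b (higher) and Rab5a, Rab12 and Rab30 (lower). Of the others, Rab3d stood at 0.54, Rab3a at 0.49, Rab6a at -0.32, Rab9 at -0.27 and Rab10 at -0.21, none of them called. Rab2b, Rab11a and Rab28 were called higher only with it. The cause of the trend was not tested.

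**Figure D3:**
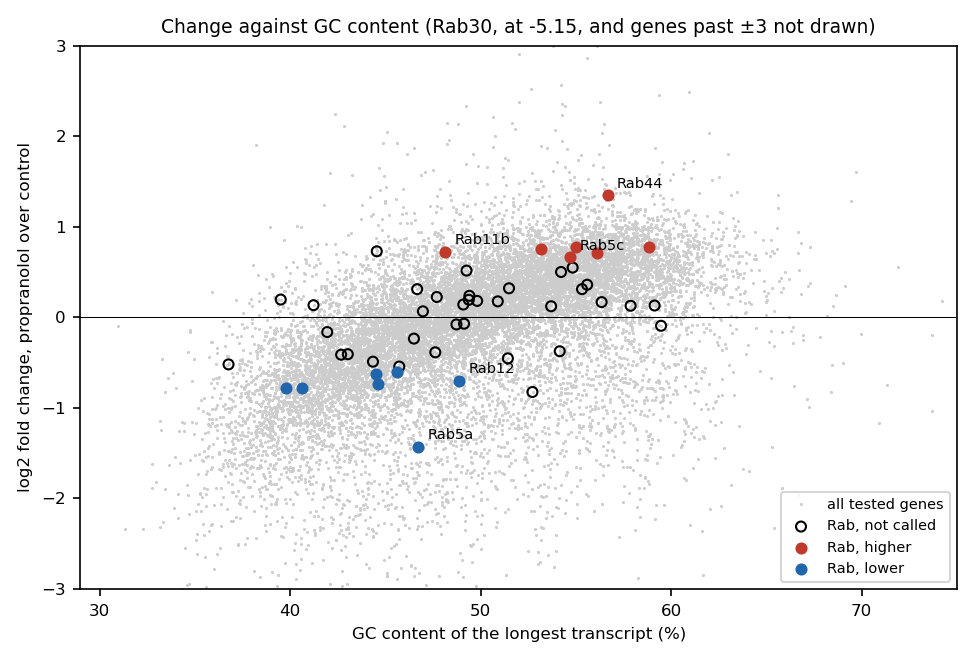
Log2 fold change (propranolol over control) against the GC content of the longest transcript for all tested genes (small grey points) and the tested Rab genes (open circles not called, red higher, blue lower). The Rab genes follow the slope of all genes, and Rab44 lies above and Rab5a below the middle of the grey points at their GC content.

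Endosomal Rab genes held the clearest difference between isoforms. Rab5 proteins control fusion at early endosomes and phagosomes, and mouse has Rab5a, Rab5b and Rab5c. Rab5a (chr17:53479234-53507680, GRCm38) was at 66.2 and 50.7 CPM in control libraries and 23.2 and 19.9 in propranolol libraries. Both propranolol values were under the lower control value, and the log2 fold change was -1.43 ± 0.16 (SE, adjusted p 0.000172, edgeR). Rab5c (chr11:100715009-100738215, GRCm38) was at 494.7 and 464.6 CPM in control and 771.6 and 745.5 in propranolol libraries, an increase of 0.66 ± 0.09 (adjusted p 0.000456). Rab5b (chr10:128677175-128696264, GRCm38) was measured at 67.8 and 65.7 against 78.5 and 68.2 CPM and was not called (0.14 ± 0.11, adjusted p 0.342). The 3 isoforms thus fell, rose and were not called, respectively. Per length, Rab5c exceeded Rab5a 17.96-fold and 22.03-fold in control libraries and 79.9-fold and 89.9-fold in propranolol libraries. The ratio of Rab5b to Rab5a went from 1.29 and 1.63 to 4.25 and 4.30. The difference between the log2 fold changes of Rab5c and Rab5a was 2.09, and 1.55 after removal of the GC trend. After that removal Rab5a was still lower (-1.17, adjusted p 0.000899), while Rab5c (0.38) fell under the fold threshold. Rab5a was the least abundant isoform in all libraries, so the summed Rab5 level followed Rab5c, with 254.2 and 237.0 CPM per kilobase in control and 374.8 and 359.8 in propranolol libraries.

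**Figure D4:**
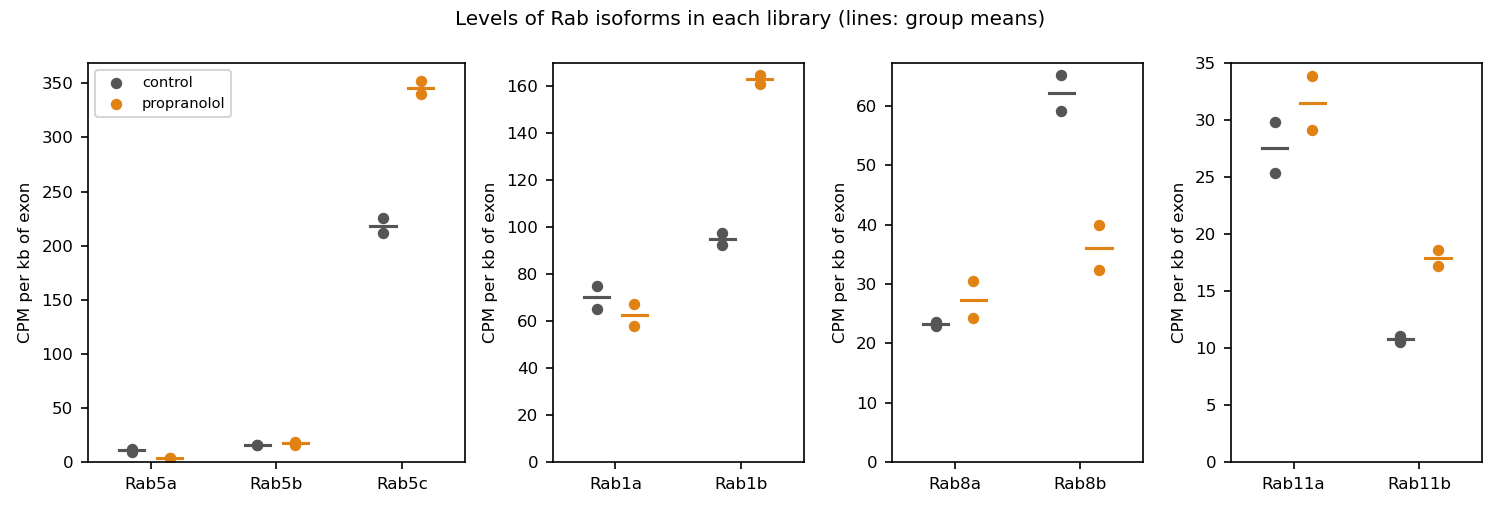
Level of Rab5, Rab1, Rab8 and Rab11 isoforms in CPM per kilobase of exon, with 1 point per library and a line at the mean of each group (grey control, orange propranolol). Rab5c and Rab1b are higher and Rab8b and Rab5a lower in the propranolol libraries, with no overlap between groups.

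The promoters of the 3 Rab5 genes are shown because the isoforms moved apart. Each sequence holds the 250 bases before the RefSeq start of the gene (GRCm38.p6), 5′ to 3′ on the strand of the gene. Capitals mark CACGTG, the E-box core, and TGACG or its reverse complement CGTCA, the half-site of the cAMP response element that CREB binds downstream of beta-adrenergic receptors. The Rab5a window is chr17:53478984-53479233 (plus strand), the Rab5b window chr10:128696269-128696518 (minus strand) and the Rab5c window chr11:100738216-100738465 (minus strand).
Rab5a: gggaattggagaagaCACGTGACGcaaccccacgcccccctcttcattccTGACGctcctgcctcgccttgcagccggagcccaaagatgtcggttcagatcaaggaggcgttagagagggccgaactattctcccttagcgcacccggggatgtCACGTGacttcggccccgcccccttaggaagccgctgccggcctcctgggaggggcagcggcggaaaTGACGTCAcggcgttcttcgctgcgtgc
Rab5b: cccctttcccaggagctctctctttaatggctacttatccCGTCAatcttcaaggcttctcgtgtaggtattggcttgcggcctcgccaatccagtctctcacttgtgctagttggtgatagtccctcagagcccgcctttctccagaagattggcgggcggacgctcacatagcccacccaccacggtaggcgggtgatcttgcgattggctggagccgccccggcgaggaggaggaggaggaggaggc
Rab5c: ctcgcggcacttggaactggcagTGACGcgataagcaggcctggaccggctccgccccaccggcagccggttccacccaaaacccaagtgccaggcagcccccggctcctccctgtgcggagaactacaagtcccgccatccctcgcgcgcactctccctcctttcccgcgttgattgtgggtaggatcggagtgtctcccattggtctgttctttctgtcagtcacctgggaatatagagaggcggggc
Rab5a held CACGTG at 95 and 235 bases before the start and TGACG at 28, 200 and 231, the last overlapping an E-box. At 28 bases the half-site and its reverse complement overlap to form the full palindrome TGACGTCA. Rab5b had CGTCA at 210 and Rab5c TGACG at 227 bases, and neither had CACGTG. Among 60 promoters of 48 Rab genes in the table, CACGTG occurred in 8.33%, against 6.02% of all 32851 promoters and 6.63% of 21263 promoters of protein-coding genes. TGACG on either strand was in 40.0% of Rab promoters, 17.8% of all promoters and 20.2% of those of protein-coding genes. The full palindrome was found for Rab5a and Rab25 (3.33%), against 1.55% of all and 1.92% of protein-coding promoters. These matches describe the letters in the window and not binding. The sets of promoters were not matched for base composition. The called genes Rab18, Rab30 and Rab44 had no promoter among the 60.

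Of the other endosomal Rab genes, Rab11b, which acts at recycling endosomes, rose. Rab11b (chr17:33742484-33760530, GRCm38) was at 68.0 and 64.9 CPM in control and 105.3 and 114.3 in propranolol libraries (0.72 ± 0.10, adjusted p 0.000572), and at 0.87 after removal of the GC trend. Its paralog Rab11a was at 89.1 and 76.0 against 101.3 and 87.2 CPM, with overlapping groups and no call (0.20 ± 0.12, adjusted p 0.223). After removal of the GC trend, however, Rab11a stood at 1.12 (adjusted p 0.000378), more than Rab11b, so the order of the 2 isoforms depended on this step. Rab35, which returns cargo from endosomes to the plasma membrane, was at 92.1 and 85.9 against 131.5 and 119.8 CPM (0.50, adjusted p 0.00377), under the fold threshold. Rab31, which acts between the trans-Golgi and endosomes, was at 192.8 and 163.3 against 204.3 and 202.6 CPM and was not called (0.19 ± 0.11, adjusted p 0.174). In all, 2 of 13 tested endosomal genes rose and 1 fell, with a median log2 fold change of 0.14. After removal of the GC trend 2 were higher (Rab11a and Rab11b) and 1 lower. The shares of all tested genes called were 27.8%, and 12.6% after this removal. The endosomal genes made up 36.6% and 36.0% of the summed Rab level (CPM per kilobase) in control libraries and 41.8% and 42.9% in propranolol libraries. Rab5c alone held 18.8% and 18.9% against 25.6% and 26.5%, and without it the endosomal share was 21.9% and 21.1% against 21.8% and 22.2%. The larger endosomal share was therefore that of Rab5c.

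Among exocytic Rab genes, Rab44 rose most. Rab44 (chr17:29114145-29148980, GRCm38), a large Rab with an EF-hand that is known from granule release in mast cells, was at 13.2 and 15.4 CPM in control libraries and 35.6 and 37.7 in propranolol libraries. The log2 fold change was 1.35 ± 0.14 (adjusted p 0.000148, edgeR), and 1.02 after removal of the GC trend. It moved with the neutrophil markers given above, of which S100a9 was at 19.2 and 21.1 against 83.8 and 82.5 CPM, and their part in its change was not tested. Rab3d, a Rab of secretory granules, was at 47.7 and 44.4 against 80.6 and 73.9 CPM (0.75 ± 0.11, adjusted p 0.000686). Rab3a, known from synaptic vesicles, was low at 3.64 and 3.47 against 5.39 and 6.88 CPM (0.78 ± 0.28, adjusted p 0.0490), and the call was lost without control replicate 2 (adjusted p 0.0889) or propranolol replicate 2 (adjusted p 0.217). Rab3b was near the detection limit with 8, 5, 26 and 3 counts and was not called.

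Rab8b and Rab10, which carry vesicles from the Golgi and recycling endosomes to the plasma membrane, fell. Rab8b (chr9:66843664-66919687, GRCm38) was at 308.2 and 279.4 CPM in control and 188.8 and 152.7 in propranolol libraries (-0.78 ± 0.12, adjusted p 0.000778). Rab8a was at 110.3 and 107.5 against 142.7 and 113.4 CPM and was not called (0.24 ± 0.12, adjusted p 0.143). The per-length ratio of Rab8b to Rab8a went from 2.76 and 2.57 to 1.31 and 1.33, with no overlap. The difference between their log2 fold changes was -1.02, but -0.27 once the GC trend was removed, at which Rab8b itself stood at 0.02. Rab10 was at 176.1 and 166.6 against 118.9 and 102.8 CPM (-0.63 ± 0.11, adjusted p 0.00135), and it fell under the fold threshold without control replicate 1 (-0.53) or propranolol replicate 2 (-0.50). The exocytic group thus had 3 higher and 2 lower genes of 10 tested and a median of 0.21, where 27.8% of all tested genes changed. After removal of the GC trend 1 of the 10 (Rab44) was called, against 12.6% of all tested genes. Without propranolol replicate 2 fewer exocytic genes were called, and a smaller share of all tested genes. Its share of the summed Rab level went from 14.2% and 14.1% to 10.9% and 9.93%, and without Rab8b from 9.30% and 9.28% to 8.23% and 7.60%. A difference with no overlap was left without its most abundant member, although no test was made of this share.

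The early secretory Rab genes, which serve the ER and Golgi, had 1 higher and 3 lower genes of 11 tested. Among all tested genes 27.8% changed. The median log2 fold change of the early secretory genes was -0.45, and -0.06 after removal of the GC trend. At that step 1 was called higher (Rab2b) and 1 lower (Rab30), against 12.6% of all tested genes. Rab1b (chr19:5099205-5107072, GRCm38), which acts in transport from ER to Golgi, rose from 221.3 and 210.1 CPM to 373.4 and 365.2 (0.78 ± 0.09, adjusted p 0.000248). Its paralog Rab1a was at 284.2 and 248.2 against 255.1 and 219.9 CPM, with overlapping groups and no call (-0.16 ± 0.11, adjusted p 0.272). Per length, Rab1b exceeded Rab1a 1.30-fold and 1.42-fold in control and 2.45-fold and 2.78-fold in propranolol libraries. The difference between their log2 fold changes was 0.94, and -0.05 after removal of the GC trend, with Rab1b at 0.44 and Rab1a at 0.49. The GC contents of the longest transcripts were 58.9% for Rab1b and 42.0% for Rab1a.

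Rab6a, a Rab of retrograde transport at the Golgi, was at 69.0 and 66.4 CPM in control and 45.4 and 35.4 in propranolol libraries (-0.74 ± 0.13, adjusted p 0.00192). It dropped under the fold threshold without propranolol replicate 2 (-0.54), and its paralog Rab6b was at 7.89 and 8.25 against 4.95 and 7.01 CPM without a call. Of the exon bases of Rab6a, 19.0% lie within exons of Mrpl48 on the opposite strand, and reads from the 2 genes cannot be told apart there without strand. Rab18, known from the ER and lipid droplets, was at 82.2 and 69.2 against 44.8 and 43.3 CPM (-0.78 ± 0.12, adjusted p 0.000824), and at 0.12 after removal of the GC trend. Rab30, a Golgi Rab, was the lowest of the called genes. Its counts were 16 and 17 in control libraries and 1 and 0 in propranolol libraries. Scaled to library size, control exceeded propranolol 42.7-fold, with an exact 95% counting interval of 7.15 to 1736, which covers counting error only. Rab30 passed the count filter through its control libraries only, so its direction was tied to the filter and the values are a description. A stricter filter left it untested, and the DESeq2 Wald test gave it no adjusted p. Rab2a, a Golgi and ER Rab among the 10 highest, was at 111.0 and 97.0 against 79.7 and 67.9 CPM (-0.49 ± 0.12, adjusted p 0.00857), under the fold threshold. It was called lower with library sizes alone (-0.72), stood at -0.06 (adjusted p 0.741) after removal of the GC trend, and had an adjusted p of 0.109 without control replicate 1. Rab2b, called higher only after removal of the GC trend, had 30, 74, 147 and 66 counts, and 64.0% of its exon bases overlap other genes on the opposite strand. The early secretory share of the summed Rab level was 22.48% and 22.05% in control against 22.08% and 22.0% in propranolol libraries, with overlapping groups.

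The lysosomal group, from late endosomes and phagosomes to lysosomes, had 1 higher and 2 lower genes of 13 tested and a median of 0.13. Rab12 alone was called after removal of the GC trend. The shares of all tested genes called were 27.8%, and 12.6% after this removal. Rab20 (chr8:11453518-11478710, GRCm38), which acts in phagosome maturation in macrophages, was at 41.94 and 49.95 CPM in control and 77.6 and 73.5 in propranolol libraries (0.71 ± 0.12, adjusted p 0.00124). After removal of the GC trend its log2 fold change was 0.40, and 25.6% of its exon bases overlap a gene on the opposite strand. Rab12, which directs recycling endosome cargo to lysosomes, was at 36.4 and 35.0 against 22.4 and 21.4 CPM (-0.70 ± 0.13, adjusted p 0.00177), and at -0.61 after removal of the GC trend, still called. Rab9, of transport from late endosomes to the Golgi, was at 23.06 and 22.04 against 15.9 and 13.7 CPM (-0.60 ± 0.15, adjusted p 0.0104). Its call was lost without control replicate 1 (-0.51, adjusted p 0.0579) and without propranolol replicate 2 (-0.47). Rab7, the main Rab of lysosome fusion, was at 339.9 and 310.7 against 327.7 and 287.7 CPM (-0.08 ± 0.10, adjusted p 0.573). Rab32, a Rab of lysosome-related organelles, was not called either (0.22 ± 0.10, adjusted p 0.0926). The lysosomal share of the summed Rab level was 25.4% and 26.6% in control and 24.0% and 23.8% in propranolol libraries. Neither of the 2 lysosomal genes with the highest mean level over all libraries, Rab7 and Rab32, was called. Rab20 lay above Rab32 in propranolol replicate 1 (55.7 against 52.6 CPM per kilobase) and below it in propranolol replicate 2 (52.8 against 55.5). Of 3 tested genes with roles outside these groups, Rab23, Rab28 and Rab40c, none was called, and Rab28 was at 30.8 and 20.5 against 17.1 and 18.5 CPM (-0.52, adjusted p 0.0510) but at 0.76 after removal of the GC trend.

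The machinery that switches and uses Rab proteins was described from a list of 167 genes, of which 158 were tested. Here 21 rose and 23 fell (27.8%, the share found among all tested genes), and the median log2 fold change was 0.19. The split depended on scaling. With library sizes alone 3 rose and 32 fell, against 4.15% and 23.8% of all tested genes. With upper-quartile factors 11 rose and 27 fell, against 26.9% of all tested genes in either direction. The number of called regulators also moved when 1 library was left out, as did the share called among all tested genes. Among the 8 genes of prenylation and recycling, 2 rose and 3 fell. Chm, which encodes Rab escort protein, was at 29.2 and 25.0 CPM in control and 10.9 and 7.92 in propranolol libraries (-1.50 ± 0.19, adjusted p 0.000292). Its log2 fold change was -0.27 after removal of the GC trend. Among 47 GEF genes, 7 rose and 4 fell. Dennd5b, which passed the count filter through its control libraries only, was the lowest. It was at 1.35 and 0.678 against 0.248 and 0.262 CPM (-1.94 ± 0.70, adjusted p 0.0475). That call was lost without any 1 of the 4 libraries (adjusted p from 0.0880 to 0.459).

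GAP genes had 4 higher and 6 lower of 36 tested. Rabgap1l was at 19.4 and 21.8 against 8.00 and 5.83 CPM (-1.55 ± 0.20, adjusted p 0.000331) and Tbc1d8b at 23.1 and 18.7 against 10.4 and 7.99 CPM (-1.16 ± 0.19, adjusted p 0.00115). Effectors had 3 higher and 7 lower of 44 tested. Sytl2, an effector of Rab27 in granule release, was at 10.6 and 12.8 CPM in control and 3.69 and 1.70 in propranolol libraries (-2.05 ± 0.33, adjusted p 0.000940), which became -2.78 without propranolol replicate 1 and -1.64 without propranolol replicate 2. Sytl3 of the same family was at 2.697 and 3.308 against 1.13 and 1.38 CPM (-1.28 ± 0.41, adjusted p 0.0291), and its call was lost without control replicate 2 (adjusted p 0.154), propranolol replicate 1 (0.128) or propranolol replicate 2 (0.0533). Both moved with the T cell and NK cell markers given above, and the part of those cells was not tested. Their partner Rab27a was at 31.6 and 30.5 against 35.3 and 29.3 CPM and was not called. Appl1, an effector of Rab5 on early endosomes, was at 48.6 and 47.9 against 25.1 and 17.8 CPM (-1.15 ± 0.16, adjusted p 0.000492). Rab11fip2, an effector of Rab11, fell by 1.20 on the log2 scale and Gcc2, a golgin, fell by 0.98.

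Tether genes had 5 higher and 3 lower of 23 tested, and Exoc5 of the exocyst was at 85.2 and 77.3 CPM in control and 34.8 and 25.9 in propranolol libraries (-1.41 ± 0.15, adjusted p 0.000148). After removal of the GC trend, 5 of the 158 regulators were higher and 3 lower, against 7.64% and 4.99% of all tested genes. Of the 10 called regulators with the largest change, Sytl2 (-1.65) and Sytl3 (-1.45) were still called. The log2 fold changes of the others were then closer to 0 and not called, at -1.45 for Dennd5b, -0.44 for Rabgap1l, -0.44 for Rab11fip2, -0.42 for Tbc1d8b, -0.42 for Appl1 (adjusted p 0.0556), -0.31 for Exoc5, -0.27 for Chm and -0.25 for Gcc2. The Arf and Arl genes, another family of small GTPases of vesicle traffic, had 2 higher and 6 lower of 27 tested (29.6%), with a median of -0.04, and none was called after removal of the GC trend. Before this removal the share of called genes was close to the background in the Rab family, its regulators and the Arf and Arl family. After it the shares were 16% of the tested Rab genes, 5.06% of the regulators and 0% of the Arf and Arl genes, against 12.6% of all tested genes.

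**Figure D5:**
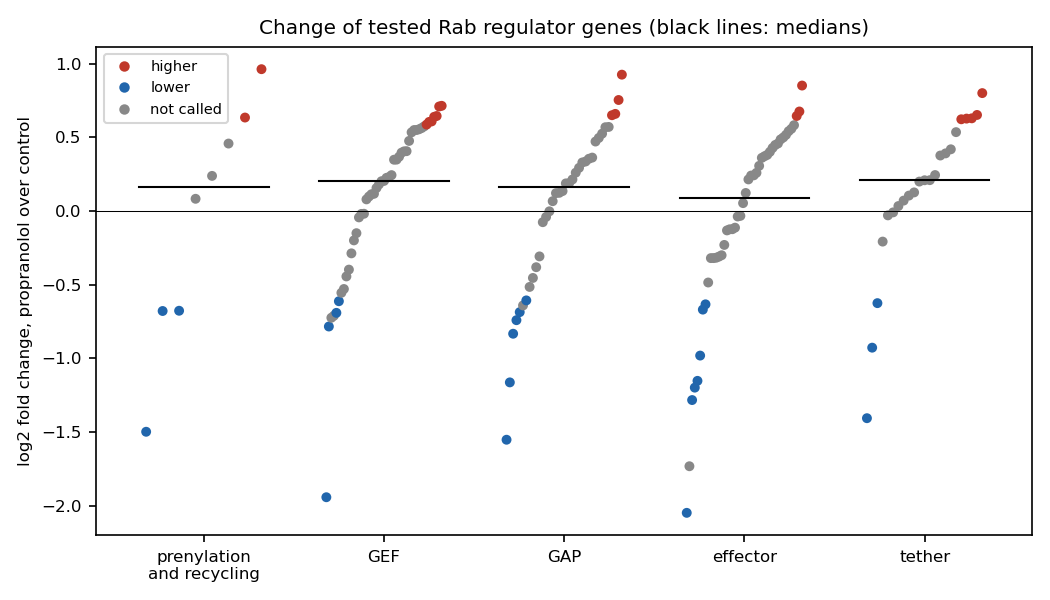
Log2 fold change (propranolol over control) of the 158 tested Rab regulators by class, 1 point per gene in order of value, red called higher, blue called lower and grey not called, with a black line at the median of each class. The lower calls reach -2.05 (Sytl2) while the higher calls end at 0.96 (Rabggta).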

How the data were processed

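The deposited counts are fragments per gene, whole numbers without normalization. Per the study's methods, the authors aligned reads to mm10 with STAR 2.7.1a, filtered them by mapping quality (SAMtools 1.9) and ran featureCounts 1.6.4 on GENCODE exons (versions as in the submitters' processing notes). The annotation release is not given in the sources used here. The counting options stated hold none for strand, and featureCounts ignores strand by default. Reads that fit several places are lost by this filter, so genes with near-identical copies can be undercounted. Identifiers, versions removed, were matched to GENCODE M21 on GRCm38 (54079 of 54146), and 0 columns were left out.

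The 4 libraries, 2 per group, were compared with the edgeR 4.0.16 quasi-likelihood test in R 4.3.3, with TMM factors, a filter at a minimum count of 10 (filterByExpr) and Benjamini-Hochberg adjustment over 14688 genes. The common dispersion was 0.0172. Standard errors (SE) are the log2 fold change divided by the square root of F. The study describes the 2 libraries of a group as biological replicates, and whether each is 1 mouse or a pool is not given in the sources used here. Replicates differed beyond counting noise (chi-square per degree of freedom 11.8 in control and 15.1 in propranolol). The fit was tested on simulated data. It recovered 77% of 200 genes given a log2 change of 1.5, with 6 false calls. The simulated data had few changed genes and no GC trend, and the change given was larger than that of most called Rab genes. These figures therefore do not give the recovery or the false calls in the real data. The GC trend of each library was removed with a natural spline of 5 degrees of freedom as offsets. Alternatives were run with DESeq2 1.42.0 and limma 3.58.1 and with other factors, filters, thresholds and left-out libraries.

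Named were every called Rab gene, the 10 with the highest mean length-scaled level (TPM), isoforms of called genes, the 10 called regulators with the largest change and leading cell markers. Rab2b, Rab14, Rab21, Rab22a, Rab27a, Rab28, Rab33b, Rab35, Rab40c, Rab23, Rabggta and the markers Mrc1, Trac, Prf1, Pf4 and Ccr7 were named after their values were seen, as were the untested genes. The members, roles and lists were chosen with earlier results of these data known. Promoters came from RefSeq (GRCm38.p6).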

Additional observations from a re-analysis of the deposited data

How the results depend on the processing

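Rab44 and Rab5a were called in the same direction in 17 of 18 alternatives and were not called at a log2 fold change above 1.5. Rab30 was called in 16 of 17, Rab12 in 16 of 18, Rab11b in 15 of 18, and Rab3a in 6 of 18. With 7 Rab genes higher and 8 lower as reported, the counts were 6 and 6 by the DESeq2 Wald test, 6 and 7 by limma-voom, 7 and 8 with DESeq2 size factors, 6 and 9 with upper-quartile factors, 8 and 6 with no filter and 6 and 7 with a stricter one. Of all genes tested, these fits called 13.1%, 27.1%, 27.7%, 26.9%, 15.8% and 31.1%, in that order, with all 59 Rab genes among those tested by DESeq2 and with no filter. With each library left out in turn, 7 to 9 were higher and 5 to 10 lower, with 5 lower without propranolol replicate 2 and 6 without control replicate 1. By role, these fits gave 3 to 5 early secretory, 3 to 6 exocytic, 3 to 4 endosomal and 2 to 3 lysosomal genes, and 21 to 36 regulators higher and 14 to 20 lower. The group left with 1 library is then assumed to vary like the other. The share called among all tested genes, given above, also differed between these fits.

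The glmTreat test against 1.5-fold left 1 Rab gene higher (Rab44) and 2 lower (7.44% of all tested genes were called), with 1 early secretory, 1 exocytic, 1 endosomal and 0 lysosomal genes, and 1 regulator higher and 9 lower. With a log2 fold change above 1.5, 0 Rab genes were higher and 1 was lower (4.96% of all tested genes were called), with 1 early secretory and 0 exocytic, endosomal or lysosomal genes, and 0 regulators higher and 3 lower. With no fold threshold, 9 Rab genes were higher and 13 lower, against 42.2% of all tested genes called. In that setting 7 endosomal genes changed, and 56 regulators were higher and 29 lower. With no filter 35 regulators were higher and 17 lower, and with upper-quartile factors 11 were higher and 27 lower. With library sizes without TMM factors, chosen after seeing the data, 1 Rab gene was higher and 14 lower. Of all tested genes 28.0% were called, 3 exocytic genes changed, and 3 regulators were higher and 32 lower. The log2 fold changes of Rab32 (-0.0091), Rab31 (-0.0392), Rab5b (-0.0934) and Rab11a (-0.0377), none of them called, then changed sign.

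The replicate number as a block gave 7 Rab genes higher and 8 lower, the same 15 genes, with 29.7% of all tested genes called. The block changed no call among the 10 called regulators with the largest change. It was not tabulated for the marker genes. Same-numbered libraries share only a number here, since the labels tie it to nothing, and their deviations from the group means correlated at 0.17 over 14688 genes. Removal of the GC trend, alone, with the replicate block and with exon length, left 5, 5 and 5 Rab genes higher and 3, 4 and 3 lower. These fits called 12.6%, 14.5% and 12.6% of all tested genes. They left 2, 2 and 2 early secretory, 1, 2 and 1 exocytic and 1, 1 and 1 lysosomal genes. Of the regulators, 5, 5 and 5 were higher and 3, 4 and 3 lower. In the same order, Rab18 stood at 0.12, 0.12 and 0.10, Rab7 at 0.0196, 0.0173 and 0.0201 and Rab1a at 0.49, 0.49 and 0.48, and Rab8b at 0.0157 and 0.0125 with the first 2, all with the sign changed. With each library left out in turn, Rab7, not called, ran from -0.17 (without propranolol replicate 1) to 0.0427 (without control replicate 1). Rab3b, not called either, ran from -0.12 (without control replicate 2) to 1.31 (without control replicate 1). It had no value without propranolol replicate 1. The cause of these changes was not tested.

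With 2 libraries per group, changes near 1.5-fold cross the threshold easily, and Rab30, Rab3a, Rab3b and Dennd5b rest on few counts. The isoform ratios do not depend on the scaling of a library, but they do depend on the GC trend wherever isoforms differ in GC content.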
